A study of Mus musculus with 6 samples.

Results

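The TNF receptor family is a group of cell-surface proteins through which B cells receive survival, costimulatory and death signals. The 10 genes described here were taken by symbol: Cd40, Tnfrsf13b, Tnfrsf13c, Tnfrsf17, Tnfrsf1a, Tnfrsf1b, Tnfrsf4, Tnfrsf9, Tnfrsf14 and Fas. All 10 were among the 23420 genes listed for each sample. B cells were purified with magnetic beads from the spleens of 3 BALB/c mice (wild type, 7 to 11 weeks of age). Cultures of 10 M cells at 10 M/mL received CpG ODN 1826, a synthetic DNA that activates TLR9, at 10 μg/mL, or were left without it, and all were taken after 4 hours. There were 3 CpG-stimulated and 3 unstimulated samples, and in both groups replicates 1 and 2 came from female and replicate 3 from male mice. No allele was altered in these mice, so each difference is that between cultures with and without CpG in a single strain, at a single dose and time. The comparison asks which receptors of the family changed in mRNA abundance once TLR9 had been engaged.

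Values were deposited as log2 CPM (read counts scaled to a common library total, CPM, on a log2 scale) after quantile normalization, so they give a gene's abundance relative to all other mRNA of the sample. A gene without reads has the value -5.15, which corresponds to a common library of 17.8 M reads, and 10 reads and 3 reads stand at -0.76 and -2.34. The depth of single samples cannot be read from the normalized values. Of the 10 receptors, 8 exceeded 10 reads in at least 3 samples and were tested within a fit over 11233 genes, whereas Tnfrsf17 and Tnfrsf1a did not and are described without a test. All 8 B cell markers were above 10 reads, with summed levels of 4100 to 4760 CPM in unstimulated and 2600 to 3000 CPM in CpG-stimulated samples. Among T cell markers, Cd3e, Cd4 and Cd8a were at or under 3 reads in all 6 samples, and the summed level of the 7 genes (72.2 to 92.7 CPM without and 125 to 142 CPM with CpG) came mainly from Lck. None of 4 NK cell markers averaged 10 reads over the samples, and Ncr1, Klrk1 and Nkg7 were at or under 3 reads in all 6. Klrb1c was at or under 3 reads in every unstimulated and over 3 reads in every stimulated sample. The 4 genes summed to 0.126 to 0.16 CPM without and 0.727 to 1.35 CPM with CpG. Of 6 myeloid markers, 4 averaged above 10 reads, with summed levels of 7.36 to 14.0 CPM without and 10.4 to 15.5 CPM with CpG. Among the 6, Adgre1 was raised by 0.83 (adjusted p = 0.00811 from limma), whereas Csf1r and Cd14, which passed the filter only through unstimulated samples, averaged -0.37 and 0.51 log2 CPM without and -1.98 and -1.23 with CpG. The 5 plasma cell markers summed to 2030 to 2320 CPM without and 2710 to 2980 CPM with CpG, of which Irf4, also an activation gene of B cells, made up most, while 3 of them (Sdc1, Xbp1 and Jchain) were lowered. The 4 pDC markers summed to 252 to 261 CPM without and 127 to 134 CPM with CpG, mainly from Tcf4, which B cells express too. Erythroid markers spanned 379 to 4870 CPM and were highest in replicate 2 of both groups. What part these other cells had in the receptor values was not tested. In such bulk samples, fewer cells of a type and less RNA per cell cannot be told apart.

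Receptors of this family carry cysteine-rich repeats outside the cell and bind trimeric ligands of the TNF superfamily. Most of them recruit TRAF adaptor proteins and lead to NF-κB, while those with a cytoplasmic death domain, such as Fas and TNFR1, can also start caspase activation. In B cells the best known members are the BAFF receptor, which keeps mature B cells alive, its relatives TACI and BCMA, and CD40, through which T cells give help.

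After 4 hours with CpG, 6 of the 10 receptor genes were raised, 1 was lowered, 1 did not pass and 2 were too low to test. Raised or lowered means a false discovery rate (adjusted p) under 0.05 from limma, with Benjamini-Hochberg adjustment over all genes tested. The response was broad, as 37.6% of all tested genes were raised and 36.7% lowered by the same rule. With a log2 fold change (log2FC) over 1 added, 5 receptors were raised (Tnfrsf13b, Fas, Tnfrsf9, Cd40 and Tnfrsf4), against 15.8% of tested genes, and none was lowered below -1, against 15.3%. Without unstimulated replicate 1 this count was 4, as the log2FC of Tnfrsf4 was then 0.97. Groups did not overlap, with CpG-stimulated samples higher, in the same 5 receptors and in 39.1% of tested genes. They did not overlap in the other direction in Tnfrsf1b among the tested receptors and in 38.6% of tested genes. The median log2FC of the 8 tested receptors was 1.33, and that of all tested genes 0.003. Summed over the 10 genes, receptor mRNA was at 785 ± 14.5 CPM without and 1040 ± 74.2 CPM with CpG (mean ± SD, n = 3 in each group).

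**Figure D1:**
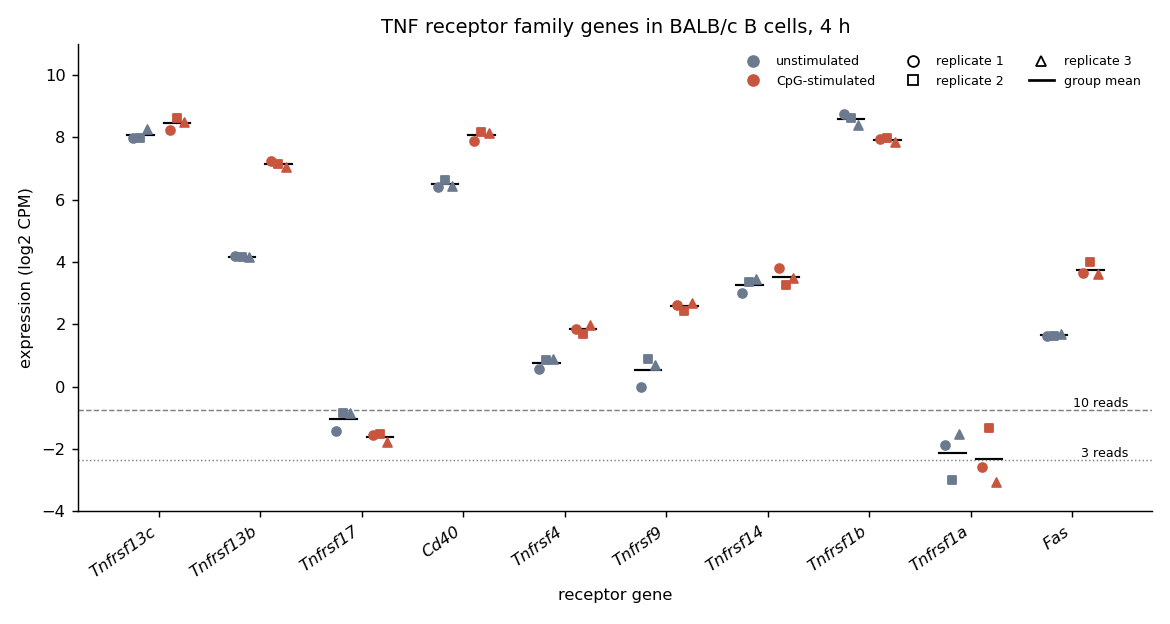
Expression of each receptor gene (vertical axis, log2 CPM) in every sample, with unstimulated samples in blue-gray, CpG-stimulated samples in red, a symbol for each replicate number and a bar at the group mean; dashed and dotted lines mark 10 reads and 3 reads. Tnfrsf13b, Cd40, Tnfrsf4, Tnfrsf9 and Fas lie higher in all 3 CpG-stimulated samples, Tnfrsf1b lies lower, and Tnfrsf17 and Tnfrsf1a stay under the line of 10 reads.

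The first group are the receptors of BAFF and APRIL. Tnfrsf13b encodes TACI, which binds both cytokines and takes part in class switching and in plasma cell responses that need no T cell help. It was at 4.19, 4.16 and 4.16 log2 CPM in unstimulated replicates 1, 2 and 3, and at 7.23, 7.15 and 7.06 in CpG-stimulated replicates 1, 2 and 3. Every stimulated sample thus lay far above every unstimulated sample, by at least 2.87 on the log2 scale. The log2FC was 2.98 (standard error 0.07, adjusted p = 5.4e-09 from limma), a 7.88-fold higher level. This was the largest change among the 10 receptors, and it ranked 107 from the top among the 11233 genes tested. Tnfrsf13b lies on the plus strand of chromosome 11 in GRCm38, from 61126755 to 61149372.

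Tnfrsf13c encodes the BAFF receptor itself, which binds BAFF only and is required for the survival of follicular and marginal zone B cells. Its values were 7.97, 7.997 and 8.26 log2 CPM without CpG, and 8.23, 8.64 and 8.48 with it. The groups overlapped, because unstimulated replicate 3 was above CpG-stimulated replicate 1. Within replicate numbers, stimulated cells were higher by 0.25, 0.64 and 0.22. The log2FC of 0.37 (standard error 0.11, adjusted p = 0.0111 from limma) passed the threshold, but not when all listed genes were tested without a filter on low values (adjusted p = 0.134) nor when a change over 0.5 was required (adjusted p = 1). Over all its alternatives the adjusted p ranged from 0.000498 to 1. The gene lies on the minus strand of chromosome 15, from 82221743 to 82224369.

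Tnfrsf17 encodes BCMA, a receptor for APRIL that is characteristic of plasma cells. It stayed under 10 reads in every sample, at -1.43, -0.86 and -0.86 log2 CPM without and -1.55, -1.53 and -1.77 with CpG, and was above 3 reads in all 6. The stimulated samples were the lower ones, with a gap of 0.11 between the groups. No test was made at this depth, and without a filter on low values the adjusted p was 0.228.

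Tnfrsf13b therefore changed far more than the receptor with which it shares BAFF. The within-sample difference of Tnfrsf13b and Tnfrsf13c (log2 values, Tnfrsf13b minus Tnfrsf13c) was -3.91 ± 0.17 without and -1.30 ± 0.27 with CpG (mean ± SD, n = 3 each), so that the ratio of TACI to BAFF receptor mRNA was 6.09-fold higher. This difference was larger in all 3 replicate numbers. An exact two-sided permutation test gave p = 0.1 (0.15 after Benjamini-Hochberg adjustment over 3 pairs), the smallest value that 3 samples against 3 allow. With samples paired by replicate number the exact p was 0.25, the smallest that 3 pairs allow. Against Tnfrsf17, the difference rose by 3.55, from 5.22 ± 0.34 to 8.77 ± 0.07 (exact p = 0.1, adjusted 0.15, and exact paired p = 0.25, n = 3 each). Per exonic length, Tnfrsf13b made up 4.97%, 4.78% and 4.03% of the mRNA of these 3 receptors in unstimulated replicates 1, 2 and 3, and 26.6%, 20.5% and 21.2% in the stimulated ones. Tnfrsf13c held the larger share in every sample, between 94.7% and 95.5% without and between 73.2% and 79.3% with CpG. Tnfrsf17 stayed under 1% throughout, between 0.162% and 0.513%.

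**Figure D2:**
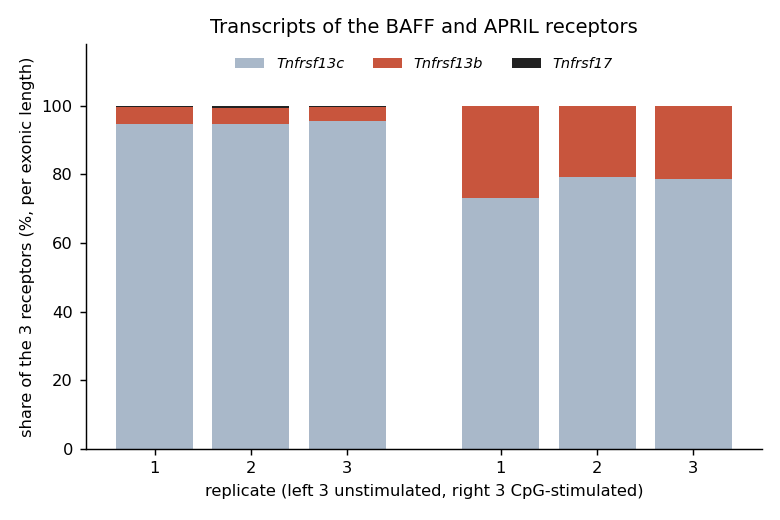
Share of Tnfrsf13c, Tnfrsf13b and Tnfrsf17 (vertical axis, percent of the 3 genes after division by exonic length) in each sample, with the unstimulated replicates on the left and the CpG-stimulated replicates on the right. The Tnfrsf13b share lies between 4.03% and 4.97% without CpG and between 20.5% and 26.6% with it.

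Cd40 is the receptor for CD40 ligand on helper T cells and drives germinal center formation and class switching. It was at 6.41, 6.64 and 6.43 log2 CPM in the unstimulated and 7.89, 8.17 and 8.15 in the CpG-stimulated replicates. All stimulated samples were higher, by at least 1.25. The log2FC was 1.58 (standard error 0.09, adjusted p = 2.04e-07 from limma), a 2.99-fold higher level, with differences of 1.49, 1.53 and 1.72 in replicates 1, 2 and 3. Cd40 lies on the plus strand of chromosome 2, from 165055627 to 165072948,.

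Tnfrsf9, Tnfrsf4 and Tnfrsf14 are costimulatory receptors that are studied mostly on T cells. Tnfrsf9 encodes CD137, a receptor induced on lymphocytes after activation. Its values were -0.01, 0.88 and 0.71 log2 CPM without CpG and 2.63, 2.42 and 2.69 with it. The groups were 1.53 apart, and unstimulated replicate 1 was the lowest sample. The log2FC was 2.05 (standard error 0.25, adjusted p = 3.03e-05 from limma), a 4.13-fold higher level, from a mean of only 1.49 CPM. The gene, at 150914562 to 150946102 of chromosome 4 (plus strand), overlaps Camta1 on the opposite strand. Camta1 was itself raised, from 3.89 ± 0.11 to 4.55 ± 0.14 (SD, n = 3; log2FC 0.66, adjusted p = 0.000219 from limma), and the strand setting of the counting is not given in the sources used here.

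Promoter sequences from RefSeq (GRCm38.p6), each of 250 bases before and 50 bases after a transcription start, were matched by symbol to 9 of the 10 receptors, in 10 windows. Cd40 had no window and was not searched. They were searched on both strands for the κB consensus, a 10-base motif bound by NF-κB dimers, and for the AP-1 motif TGANTCA. The κB consensus was found in 1 of the 10 windows, and in 8.46% of all 32851 windows of the table. AP-1 was found in 2, and in 7.81% of all windows. The window with the κB motif belongs to Tnfrsf9, at the downstream of its 2 RefSeq starts, which lie 7.8 kb apart, and it also has an AP-1 match; 0.539% of all windows hold both. The other AP-1 match is in the Fas window. The 250 bases before each of these starts follow with the matches in capitals, together with those of Tnfrsf13b, the receptor that changed most, in which neither motif was found. In Tnfrsf9, the capitals GGGGATTTCCC are 2 overlapping κB matches that begin 43 and 42 bases before the start, followed by AP-1 at 15 bases before it; in Fas, the AP-1 match begins 211 bases before the start. A match is a description of the letters and not a site of binding.
Tnfrsf9, chr4:150927749-150927998, plus strand: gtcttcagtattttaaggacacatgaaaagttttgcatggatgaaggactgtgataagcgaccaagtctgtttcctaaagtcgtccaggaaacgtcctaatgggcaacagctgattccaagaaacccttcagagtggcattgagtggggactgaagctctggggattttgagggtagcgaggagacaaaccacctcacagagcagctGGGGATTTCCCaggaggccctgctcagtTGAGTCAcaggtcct
Fas, chr19:34290409-34290658, plus strand: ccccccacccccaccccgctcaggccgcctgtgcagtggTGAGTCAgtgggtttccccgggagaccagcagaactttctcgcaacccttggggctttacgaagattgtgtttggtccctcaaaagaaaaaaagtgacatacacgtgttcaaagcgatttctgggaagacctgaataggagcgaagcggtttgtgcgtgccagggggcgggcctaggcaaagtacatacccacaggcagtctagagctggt
Tnfrsf13b, chr11:61126505-61126754, plus strand: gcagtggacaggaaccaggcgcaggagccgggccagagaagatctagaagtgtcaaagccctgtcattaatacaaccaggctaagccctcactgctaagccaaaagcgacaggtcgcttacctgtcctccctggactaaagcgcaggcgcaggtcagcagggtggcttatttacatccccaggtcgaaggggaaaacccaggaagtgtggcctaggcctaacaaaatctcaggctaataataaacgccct

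Tnfrsf4 encodes OX40, the receptor of OX40 ligand. It was at 0.57, 0.86 and 0.89 log2 CPM without and 1.85, 1.70 and 1.99 with CpG. The groups were 0.80 apart. The log2FC of 1.07 (standard error 0.20, adjusted p = 0.000627 from limma) is a 2.11-fold higher level, on a base of 1.72 CPM. Klrb1c of the NK cell markers and Lck of the T cell markers were higher in the same samples as Tnfrsf9 and Tnfrsf4. Cd5, the other T cell marker tested, was lower with CpG in all 3 replicate numbers but did not pass (log2FC -0.32, adjusted p = 0.334 from limma). The NK cell markers Ncr1, Klrk1 and Nkg7 were at or under 3 reads in all samples. Cd3d and Cd3g were under 10 reads in all samples, and their groups overlapped. What part NK or T cells had in these values was not tested. Tnfrsf4 lies at 156013843 to 156016612 of chromosome 4 (plus strand).

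Tnfrsf14 encodes HVEM, which binds LIGHT and lymphotoxin α and is the partner of the inhibitory receptor BTLA. Its values were 3.01, 3.35 and 3.46 log2 CPM without CpG and 3.81, 3.27 and 3.49 with it. The groups overlapped, and the differences within replicate numbers were 0.80, -0.08 and 0.03. The log2FC of 0.25 did not pass (95% interval -0.12 to 0.62, adjusted p = 0.19 from limma). The interval includes changes as large as that of Tnfrsf13c. The value was 0.109 without CpG-stimulated replicate 1, 0.122 without unstimulated replicate 1 and 0.382 without CpG-stimulated replicate 2, and did not pass in any of these (adjusted p = 0.563, 0.533 and 0.0526 from limma). Tnfrsf14 lies on the minus strand of chromosome 4, from 154921933 to 154928563.

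Tnfrsf1b and Tnfrsf1a encode TNFR2 and TNFR1, the receptors of TNF. Tnfrsf1b, which lacks a death domain, was at 8.74, 8.64 and 8.41 log2 CPM without and 7.95, 7.997 and 7.84 with CpG. It was the only tested receptor of the 10 that was lowered, with every stimulated sample at least 0.41 below every unstimulated sample. The log2FC was -0.67 (standard error 0.09, adjusted p = 5.83e-05 from limma), a 1.59-fold lower level. The differences within replicate numbers were -0.80, -0.64 and -0.57. It did not pass when a change beyond 0.5 was required (adjusted p = 0.0969), and across its alternatives the adjusted p lay between 2.03e-07 and 0.0969. Tnfrsf1b lies at 145213463 to 145246870 of chromosome 4 (minus strand).

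Tnfrsf1a, the death domain receptor of the pair, was under 10 reads in all samples and above 3 reads in only 3 of them. Its values of -1.88, -2.98 and -1.53 log2 CPM without and -2.58, -1.32 and -3.08 with CpG overlapped and were not tested. Of the mRNA of both TNF receptors, per exonic length, Tnfrsf1a was between 0.0469% and 0.231% in every sample. The difference of Tnfrsf1b and Tnfrsf1a was 10.73 ± 0.84 without and 10.25 ± 0.83 with CpG (SD, n = 3), a change that is smaller than the spread between replicates (exact permutation p = 0.5, adjusted 0.5, and exact paired p = 0.75).

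Fas encodes CD95, the death receptor for Fas ligand that removes activated and autoreactive lymphocytes. The lpr mutation of MRL/lpr mice disrupts this gene, which is intact in BALB/c mice. It was at 1.64, 1.63 and 1.70 log2 CPM without CpG and at 3.66, 3.99 and 3.63 with it. The groups were 1.93 apart. The log2FC was 2.10 (standard error 0.14, adjusted p = 4.54e-07 from limma), a 4.29-fold higher level. Its promoter letters are given above. Fas lies at 34290666 to 34327772 of chromosome 19 (plus strand).

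**Figure D3:**
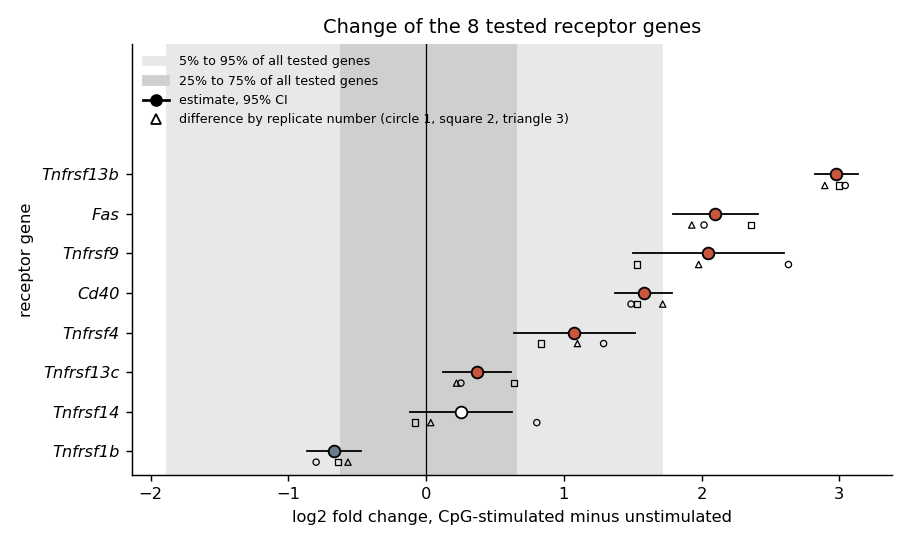
Log2 fold change of each tested receptor gene (horizontal axis, CpG-stimulated minus unstimulated) with its 95% interval, and below it the differences within replicate numbers; red points were raised, blue-gray lowered and white did not pass. Shading spans the middle 50% (-0.62 to 0.65) and 90% (-1.88 to 1.72) of all tested genes, and Tnfrsf13b, Fas and Tnfrsf9 lie to the right of both.

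Levels of different receptors were compared after division by exonic length, as log2 CPM per kilobase. In unstimulated cells Tnfrsf13c was highest at 7.04 ± 0.16, followed by Tnfrsf1b at 6.66 ± 0.17 and Cd40 at 4.73 ± 0.13 (mean ± SD, n = 3). Tnfrsf14 (2.75 ± 0.23) and Tnfrsf13b (2.67 ± 0.02) came next and did not differ beyond the sum of their SDs. Fas (0.61 ± 0.04) and Tnfrsf4 (0.33 ± 0.18) followed. Tnfrsf17 (-0.75 ± 0.33) and Tnfrsf9 (-0.92 ± 0.47) did not differ beyond their spread, and Tnfrsf1a was lowest at -3.51 ± 0.76. In unstimulated cells, then, the BAFF receptor and TNFR2 stood well above the remaining receptors.

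With CpG the order became Tnfrsf13c (7.41 ± 0.21), Cd40 (6.30 ± 0.16), Tnfrsf1b (5.995 ± 0.08) and Tnfrsf13b (5.64 ± 0.09), again as log2 CPM per kilobase. Cd40 had moved above Tnfrsf1b, and Tnfrsf13b from rank 5 to rank 4. Below these 4 genes came Tnfrsf14 (3.001 ± 0.27) and Fas (2.72 ± 0.20), which did not differ beyond their spread, and neither did Tnfrsf4 (1.40 ± 0.15) and Tnfrsf9 (1.13 ± 0.14). Tnfrsf17 (-1.33 ± 0.13) and Tnfrsf1a (-3.70 ± 0.91) were lowest.

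The receptors were also compared by position. Chromosome 4 carries 4 of the 10 receptors, and 7 genes of the family in all, between 145213463 and 156028895. Direction was not shared along it. Tnfrsf1b was lowered at one end. Its neighbor Tnfrsf8 (which encodes CD30), 20266 bases away, was higher in every stimulated sample, but it passed the filter on low values only through those samples. At the other end, Tnfrsf4 was raised, and Tnfrsf18 (GITR), 9551 bases away, was lowered by 0.66 (adjusted p = 0.00772 from limma). Between them, Tnfrsf9 was raised, Tnfrsf14 did not pass, and Tnfrsf25 (DR3) was higher with CpG under the same limit as Tnfrsf8.

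Beyond the 10 receptors, 18 further receptors of the family were examined, of which 12 were tested. Of these, 6 were raised, 4 lowered and 2 did not pass, against 37.6% raised and 36.7% lowered among all tested genes. Among the 6 are Tnfrsf8 and Tnfrsf25, which passed the filter on low values only through the stimulated samples and so had to differ; they are given as values. Tnfrsf8, a receptor of activated lymphocytes, was at -2.25, -2.88 and -4.67 log2 CPM without CpG, so that 1 of these samples was above 3 reads, and at 2.596, 2.78 and 3.53 with it. Tnfrsf25 was at or under 3 reads in every unstimulated sample and at -0.23, 0.09 and -0.44 with CpG, a group mean at least 4.44-fold higher than 3 reads per library. Tnfrsf21, the death receptor DR6, was raised by 2.18 and Tnfrsf19 by 1.80. Lowered were Tnfrsf10b, the receptor of TRAIL (log2FC -1.93), Cd27 (-1.43), Tnfrsf26 (-0.86) and Tnfrsf18 (-0.66). Tnfrsf12a did not pass (adjusted p = 0.0673 from limma), but did with the replicate number as a block (0.0173).

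**Figure D4:**
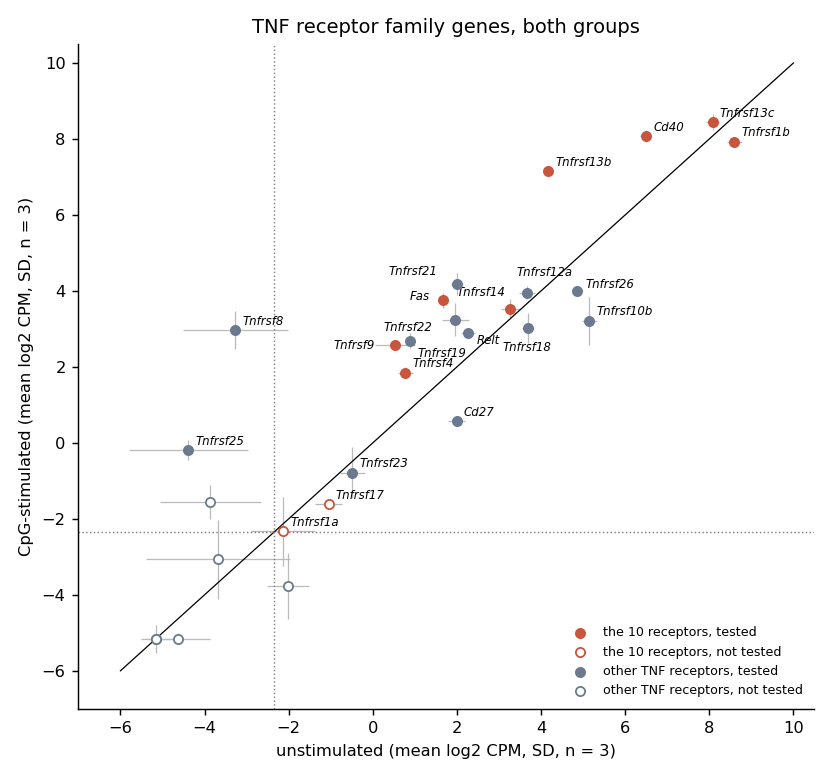
Mean expression without CpG (horizontal axis) against that with CpG (vertical axis), both in log2 CPM with SD (n = 3), for the 10 receptors in red and 18 further TNF receptors in blue-gray; open symbols were not tested, dotted lines mark 3 reads and the diagonal marks equal levels. Tnfrsf13b, Cd40, Fas, Tnfrsf9 and Tnfrsf4 lie above the diagonal, Tnfrsf1b below it, and Tnfrsf8 and Tnfrsf25 lie far above it, with unstimulated means under 3 reads.

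The list of ligands held 11 genes, with BTLA as the partner of HVEM and lymphotoxin β as that of lymphotoxin α. Of these 11, 6 were tested: 5 were raised and 1 lowered (median log2FC 1.37). Over all tested genes, 37.6% were raised and 36.7% lowered. Tnf rose from 3.83 ± 0.39 to 6.86 ± 0.27 log2 CPM (SD, n = 3; log2FC 3.03, adjusted p = 3.02e-07 from limma), while its receptor Tnfrsf1b fell. Lta, which encodes lymphotoxin α, rose by 2.54, Tnfsf9, the ligand of Tnfrsf9, by 1.66 and Btla by 1.08. Tnfsf4, the ligand of Tnfrsf4 and named here after its values were seen, rose by 1.04 (adjusted p = 0.00814 from limma). In both of these pairs receptor and ligand rose in the same cultures. Ltb, which encodes lymphotoxin β, fell by 1.81. Cd40lg and Tnfsf13, which encode CD40 ligand and APRIL, were at or under 3 reads in all 6 samples. Tnfsf13b, which encodes BAFF, was not tested, at -5.13, -5.24 and -3.49 log2 CPM without and -0.99, -2.52 and -1.49 with CpG. Thus mRNA of the ligands for CD40 and TACI was at or near the limit of detection in the same cells. Tnfsf14, which encodes LIGHT, was at or under 3 reads in every unstimulated sample and at -1.14, -0.83 and -0.71 with CpG, a group mean at least 2.74-fold higher than 3 reads per library, and was not tested. Fasl was above 3 reads in 1 of 6 samples.

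Proteins that act below the receptors moved in both directions. Of 10 adaptors and ligases, 4 were raised and 4 lowered, with a median log2FC of 0.04. The shares over all tested genes were 37.6% raised and 36.7% lowered. Traf1, an adaptor induced by NF-κB, rose by 2.45 to 9.06 ± 0.08 log2 CPM (SD, n = 3), and Traf6, which couples CD40 and TLR9 to NF-κB, by 0.64. Birc3, a ubiquitin ligase, rose by 0.57 and Tradd, the adaptor of TNFR1, by 0.26. The lowered genes were Traf5 (-0.97), Map3k14 (-0.57), which encodes the kinase NIK of the noncanonical pathway, Ripk1 (-0.47) and Traf3 (-0.26), an inhibitor of NIK. Adjusted p values of these 8 genes were between 1.7e-08 and 0.0314 in limma.

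Of the 6 genes of the Fas pathway reported here, which are part of a longer list and give no direction for the pathway, 3 were raised, 2 lowered and 1 did not pass. For all tested genes the shares were 37.6% raised and 36.7% lowered. Cflar, which encodes the caspase-8 inhibitor FLIP, rose by 2.50, from 6.55 ± 0.05 to 9.05 ± 0.16 log2 CPM (SD, n = 3; adjusted p = 1.43e-08 from limma), a larger change than that of Fas. Bid, a substrate of caspase-8, rose by 1.27 and Faim, an inhibitor of Fas-induced death, by 0.83. Faim3 (-1.03) and Casp8 (-0.69) were lowered. The adaptor Fadd did not pass (log2FC 0.01).

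Among 11 NF-κB proteins and feedback genes, 6 were raised and 4 lowered (median log2FC 0.67), against 37.6% and 36.7% of all tested genes. Nfkbia, the inhibitor IκBα, rose by 1.83 and Nfkb1 by 1.71, and the inhibitors Nfkbib and Nfkbie by 1.07 and 1.06. The deubiquitinase Cyld fell by 1.56 and the subunits Rel, Relb and Rela by 1.21, 0.46 and 0.18.

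Membrane proteases that shed or cleave such receptors, as ADAM10 does with TACI and γ-secretase with BCMA, gave 8 genes, of which 7 were lowered and 0 raised at an adjusted p under 0.05 in limma. By the same rule 36.7% of all tested genes were lowered and 37.6% raised. One of the 7, Aph1b, passed the filter on low values only through unstimulated samples. Adam10 fell from 8.52 ± 0.08 to 7.18 ± 0.02 log2 CPM (SD, n = 3; log2FC -1.33, adjusted p = 5.19e-08 from limma). Aph1b was at 0.61 ± 0.59 without and -2.14 ± 0.08 with CpG, just above 3 reads. The γ-secretase genes Ncstn and Psen2 fell by 0.58 each. Aph1a did not pass (log2FC -0.04). Adam10 mRNA thus fell in the samples in which Tnfrsf13b mRNA rose, and protein on the cell surface was not measured in these samples.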

How the data were processed

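RNA-seq values of 3 CpG-stimulated and 3 unstimulated B cell samples were used, and groups and replicate numbers were taken from the sample labels. The authors prepared mRNA libraries, trimmed reads with Trim Galore 0.6.5, aligned them to mm10 with STAR 2.6.1a, counted them per gene with featureCounts (Subread 2.0.1), quantile normalized the counts and converted them with voom. The deposited values are log2 CPM with an offset of 0.5 reads. Annotation and strand setting of the counting are not given in the sources used here. The zero level was taken as the most common value, from which those of 10 and 3 reads were computed; they cover counting error only.

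The test was limma's moderated statistic with a mean-variance trend (version 3.58.1 under R 4.3.3), fitted over genes above 10 reads in at least 3 samples. The procedure was tested on simulated data. Ratios were tested by exact permutation in scipy 1.17.1, and lists were described by counts. Receptors, lists and thresholds were chosen with earlier results of these data known. Named genes are the 10 receptors and, of each list, up to 4 raised and 4 lowered genes with the largest changes, plus ligands at or under 3 reads in all samples. Coordinates and lengths are from GENCODE M21 (GRCm38). Older gene symbols were matched through RefSeq names for 3 marker genes. Protein sequences were not used here, and some genes of the Fas pathway are not reported here.

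The labels state 3 mice, with no word on whether a mouse gave both cultures. Deviations from group means correlated at 0.435, 0.224 and 0.3 for equal replicate numbers and from -0.281 to 0.0279 for unequal ones. Deviations within a group cancel, so the lower values follow in part from the higher ones and are not separate support. On this basis numbers were treated as pairing the samples. The fit as planned has no block, and the blocked and paired values are given as alternatives. The deposited values also carry a shift by replicate number: in 251 genes where 1 read set a sample apart, its partner lay below the other samples by 0.167 of that step. Log2FC values do not change with it, but the spread between replicates does. The SDs, standard errors and adjusted p values given here rest on that spread, and how far they change was not tested. The effect of this shift on the correlations was not tested. Low values can differ by replicate number alone, as Tnfrsf11b was at -4.93, -5.58 and -4.95 in replicates 1, 2 and 3 of both groups. Alternatives were the filter, the replicate block, each sample left out, log2(CPM + 1), no trend, robust priors, recentring, and a test against a log2FC of 0.5.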

Additional observations from a re-analysis of the deposited data

How the results depend on the processing

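Of 210 values under the alternatives, 204 were classed as the same, 3 as moved and 3 as weaker. For single genes and ratios, the same meant an unchanged direction and side of the threshold, or a move below the replicate SD. Some counts classed as the same did change. Raised receptors numbered 5 in place of 6 without a filter and against a log2FC of 0.5. Those raised by over 1 numbered 4 in place of 5 on log2(CPM + 1) and without unstimulated replicate 1. Testing against a log2FC of 0.5 left 0 lowered receptors, as Tnfrsf1b (-0.67) no longer passed, and also ended the call of Tnfrsf13c (0.37). Tnfrsf13c did not pass without a filter on low values either (0.37). That fit tests more genes and also estimates the mean-variance trend over those at low values. The adjusted p of Cd40 rose as well, from 2.04e-07 to 0.00077 in limma. Which of these changes mattered was not tested. On log2(CPM + 1) the change of Tnfrsf13b minus Tnfrsf17 was 3.08 and that of Tnfrsf17 -0.17, as this scale shrinks low values; Tnfrsf4 was then raised by 0.763, under the threshold of 1. With the replicate block, 6 receptors were raised and 1 lowered, as without it, and no call among the 10 changed. Leaving out each sample changed no call at an adjusted p under 0.05 among the 8 tested receptors, but the count raised by over 1 was 4 without unstimulated replicate 1 (Tnfrsf4 at 0.97). For the levels per length, the longest coding transcript in place of all exons exchanged the neighbors Tnfrsf17 and Tnfrsf9 in unstimulated cells. Normalized values without counts limit the depth known for each sample, and 3 samples in a group limit exact tests to p = 0.1.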
